A study of Mus musculus with 12 samples.

Results

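Hepcidin and 9 other genes of iron handling were followed in mouse liver across 2 models of cholestasis, with and without hyodeoxycholic acid (HDCA), a secondary bile acid that is largely made from primary bile acids in the gut. The 10 genes were picked by symbol and all 10 were found among the 16970 gene symbols measured: Hamp, Hamp2, Bmp6, Hfe, Tfr2, Tfrc, Trf, Slc40a1, Ftl1 and Fth1. All 10 were among the 10805 genes that reached 1 FPKM in at least 3 of the 12 libraries and were tested. FPKM is the number of fragments scaled to the length of the gene model and to library depth, so levels of different genes can be set side by side.

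Polyadenylated RNA of whole liver was sequenced in 4 groups of 3 libraries, titled BDL, BDL_H, MDR and MDR_H. BDL stands for bile duct ligation, the surgical closure of the common bile duct; the series description gives a ligation of 7 days, with 100 mg/kg HDCA on 4 days after a wait of 3 days, and these figures were taken for BDL_H. It also names Abcb4-/- mice of 60 days given 100 mg/kg HDCA for 21 days, and these figures were taken for MDR_H, although no library title names Abcb4. Abcb4 encodes the canalicular phospholipid exporter MDR2, and its loss is a genetic model of chronic bile duct injury. The sources used here do not give strain, sex, vehicle or feeding. BDL, BDL_H, MDR and MDR_H thus differ in more than the model, since surgery, length of treatment and perhaps age and strain change with it. Livers of unoperated wild-type mice were not analysed here, so no level can be called raised or lowered by cholestasis. Nothing states that the replicates are separate animals, so the variation behind each p-value could be technical in part or in whole. In the main limma fit, that variation is the spread within groups, pooled over all 4 groups of 3 libraries. A group with a wide spread thus also widens the intervals of comparisons that leave it out.

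Iron is carried in plasma by transferrin and enters cells by the transferrin receptor, is stored inside ferritin, and leaves cells by ferroportin. Hepcidin, a peptide hormone made by hepatocytes, binds ferroportin and causes its internalisation and degradation, so that less iron reaches the plasma. Hepatocytes raise hepcidin transcription in response to BMP6, a ligand made mainly by the sinusoidal endothelium, which acts through SMAD proteins; HFE and transferrin receptor 2 are needed for a full response to iron-loaded transferrin. Interleukin 6 raises hepcidin by a separate route through STAT3, the route that also drives acute phase proteins.

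The libraries held 34260782 to 40427855 recovered reads. The library labelled BDL replicate 1 and the library labelled BDL_H replicate 2 stood apart from the rest. Their median log2(FPKM + 1) values over the tested genes were 2.49 and 2.56, against 2.80 to 3.06 in the other 10. Several values that rest on these libraries are therefore also given without both. Abcb4 was not lower in the libraries labelled MDR: it was at 150.1 to 181.3 FPKM in MDR and at 129.1 to 165.3 in MDR_H, against 52.8 to 167.8 in BDL and 72.1 to 178.4 in BDL_H. These levels do not show the loss that the label would give if the transcript were lost, so MDR and MDR_H stand throughout for libraries labelled so, and every direction between models rests on the labels. The 8 hepatocyte markers, among them Alb and Ttr, were present in every library, with summed levels of 45252 to 56300 FPKM in the BDL and BDL_H libraries and 29832 to 46672 in MDR and MDR_H. The labels give no sex. The summed level of 4 Y-linked genes was 16.1 to 20.2 FPKM in all 6 BDL and BDL_H libraries and in MDR replicate 1, and at most 0.016 in the other 5 MDR and MDR_H libraries. Model and sex therefore cannot be told apart in most of what follows, and MDR replicate 1 differs from the other MDR libraries in this respect.

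Hepcidin was the most variable of the abundant iron genes. Its gene, Hamp (chromosome 7, 30942368 to 30944032, minus strand, GRCm38), had a mean of 2262 FPKM over the 12 libraries and ranked 29 among all genes measured. Mice carry a second hepcidin gene, Hamp2, which lies 17686 bases downstream of Hamp on the same strand (chromosome 7, 30922372 to 30924681). Its mature peptide is not thought to lower plasma iron in the way that the product of Hamp does.

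Under HDCA, Hamp was higher in MDR livers without overlap, but the difference did not pass the test. In BDL, Hamp was at 4589, 2893 and 1741 FPKM in replicates 1, 2 and 3. In BDL_H it was at 1711, 4439 and 1836. In MDR it was at 856.3, 1241 and 1468, and in MDR_H at 2577, 2029 and 1769. Every MDR_H library thus exceeded every MDR library, whereas the BDL and BDL_H libraries overlapped, with the highest value of each group in BDL replicate 1 and BDL_H replicate 2. The means were 1188 ± 309.1 FPKM in MDR and 2125 ± 412.1 in MDR_H (SD, n = 3), a ratio of 1.79. The log2(FPKM + 1) difference was 0.86 (SE 0.41; 95% interval -0.04 to 1.75; limma, Benjamini-Hochberg adjusted p = 1.00 over all genes tested). Leaving out each library in turn gave differences of 0.64 to 1.03. The lower end came without MDR replicate 1, which held the lowest Hamp level of the MDR group and was the MDR library with Y-linked transcripts. Set against the same replicate number, the MDR_H level was 3.01, 1.64 and 1.21 times the MDR level.

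In the BDL model the HDCA difference in Hamp was -0.24 (SE 0.41; 95% interval -1.14 to 0.65; adjusted p = 1.00), between means of 3074 ± 1433 FPKM in BDL and 2662 ± 1540 in BDL_H (SD, n = 3). It ranged from -0.68 to 0.10 as single libraries were left out, and was -0.34 (SE 0.29) without both libraries that stood apart. The effect of HDCA on Hamp was larger in MDR than in BDL by 1.10 on the log2 scale (SE 0.58; 95% interval -0.17 to 2.36; adjusted p = 1.00 by limma), so the difference between models was not resolved. Of the 10 members, none passed the test for HDCA in either model or for the difference between models, where 0% of the 10805 genes tested did. Without adjustment, 243 genes (2.25%) were under 0.05 for HDCA in BDL, 61 (0.565%) for HDCA in MDR and 200 (1.85%) for the difference. None of the 10 members was among them, which at these shares does not set the members apart. Limma-voom on recovered reads also called 0 genes, with 333, 80 and 294 under 0.05. Hamp was the 1 member whose MDR and MDR_H values did not overlap, against 5.95% of all genes tested, 1.35% higher and 4.6% lower. No member did so between BDL and BDL_H, against 5.03%, with 3.43% higher and 1.59% lower.

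Between the untreated models, Hamp was lower in MDR than in BDL without overlap, at 0.387 times the level. The highest MDR library, at 1468 FPKM, lay below the lowest BDL library, at 1741. The log2 difference was -1.30 (SE 0.41; 95% interval -2.19 to -0.40) and the adjusted p, 0.0516, fell just short of the threshold of 0.05. Without both libraries that stood apart the difference was -0.95 and the adjusted p 0.0338. It was also under 0.05 without BDL replicate 3 (0.0243) and without BDL_H replicate 2 (0.0211), and otherwise reached up to 0.151, so the call turns on single libraries while the direction did not. Between the treated models no such gap was seen, with a difference of -0.20 (SE 0.41; adjusted p = 0.776 by limma), which was 0.24 without both libraries that stood apart. The untreated comparison shares its MDR libraries with the HDCA comparison in MDR and its BDL libraries with that in BDL, so these values are not separate lines of evidence.

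**Figure D1:**
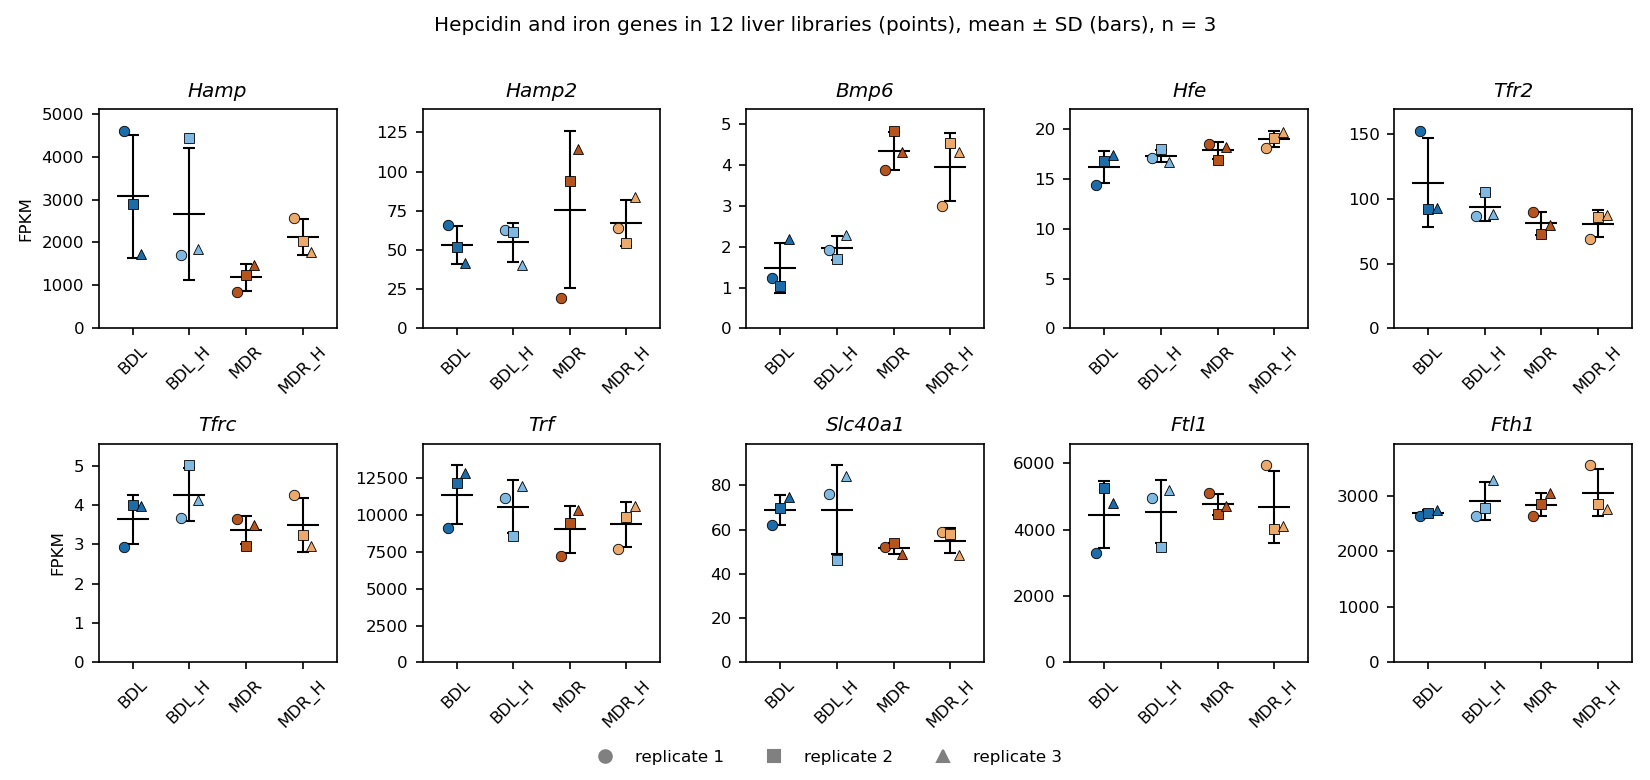
Levels of the 10 members in FPKM (linear axes from 0) in the 4 groups, 1 point per library, with bars at the group mean and error bars of 1 SD (n = 3). Hamp in the 3 MDR libraries lies between 856.3 and 1468 FPKM, below all libraries of the other groups, and Bmp6 separates both MDR groups from both BDL groups.

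No difference in Hamp2 passed the test over all 12 libraries, and its spread was widest in the MDR group. Its level was 65.8, 51.9 and 41.6 FPKM in BDL, 62.8, 61.5 and 40.3 in BDL_H, 19.3, 93.8 and 114.2 in MDR and 63.9, 54.6 and 83.6 in MDR_H. The MDR group held both the lowest and the highest value of the 12, and the lowest was that of MDR replicate 1, the MDR library with Y-linked transcripts; the other groups lay between. Hamp2 is known to be higher in female than in male mouse liver. Its pooled SD within groups was 0.743 on the log2 scale, above that of 98.4% of tested genes. Hamp was at 0.572 (95.8%) and the median gene at 0.208. By group the SD of Hamp2 was 0.324 in BDL, 0.354 in BDL_H, 1.37 in MDR and 0.307 in MDR_H. That of Hamp was 0.699, 0.766, 0.397 and 0.274, so Hamp2 varied less than Hamp in BDL and BDL_H. For HDCA the log2 difference was 0.04 (SE 0.52; 95% interval -1.09 to 1.18) in BDL and 0.15 (SE 0.52; 95% interval -0.98 to 1.29) in MDR, and for MDR against BDL 0.19 (SE 0.52; adjusted p = 0.808 by limma). The main fit pools the wide MDR spread into each SE. With only the BDL and BDL_H libraries fitted, the SE of the HDCA difference in BDL was 0.24. Over all 12 libraries the MDR against BDL difference was -0.18 under median-of-ratios scaling. Without MDR replicate 1, and without scaling, it was 0.97 with an adjusted p of 0.0345 by limma. What sex and model each contribute to this cannot be told apart. The ratio of Hamp to Hamp2 was 41.8 to 69.8 in BDL, 27.2 to 72.2 in BDL_H, 12.9 to 44.3 in MDR and 21.2 to 40.4 in MDR_H, with overlap in every comparison. The genes are near copies, and the sources used here do not say how reads that match both were counted.

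Bmp6, which encodes the main ligand that reports liver iron to hepatocytes, was the 1 member called between models. On chromosome 13 (38345107 to 38500302, plus strand), it was the least abundant member. Its level was 1.24, 1.03 and 2.19 FPKM in BDL and 1.93, 1.70 and 2.28 in BDL_H. It was 3.88, 4.83 and 4.33 FPKM in MDR and 2.99, 4.54 and 4.33 in MDR_H, above every library of the BDL model. Means were 1.49 ± 0.616 FPKM in BDL and 4.35 ± 0.475 in MDR (SD, n = 3), a ratio of 2.92, resting on 124 to 542 recovered reads per library. Bmp6 rose in MDR against BDL by a log2(FPKM + 1) difference of 1.13 (SE 0.18; 95% interval 0.72 to 1.53; limma adjusted p = 0.00430), and the adjusted p was at most 0.0251 when any library was left out. It was the 1 member of 10 called, in a comparison that called 16.2% of all genes tested, 15.1% higher and 1.07% lower. Between the treated groups Bmp6 also rose, by 0.73 (SE 0.18; adjusted p = 0.0386 by limma), where 8.29% of genes were called and 7.36% as higher. That call was lost with scaling (adjusted p = 0.0788), with limma-voom (0.0901), with a pseudocount of 0.1 (0.0517), with no filter (0.0569) and without any one of BDL_H replicates 1, 2 and 3, MDR replicate 3 and MDR_H replicates 2 and 3 (adjusted p up to 0.121). HDCA left Bmp6 unresolved, at 0.28 (SE 0.18; 95% interval -0.12 to 0.68) in BDL and -0.12 (SE 0.18; 95% interval -0.53 to 0.28) in MDR.

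In whole liver, more cells of a type and more RNA per cell cannot be told apart, and markers of the cells that make BMP6 moved in the same direction. The 9 sinusoidal endothelial markers summed to 37.5 to 152.4 FPKM in BDL, 154.2 to 170.6 in BDL_H, 183.7 to 231.1 in MDR and 202.0 to 243.5 in MDR_H, none of them at 0 in any library. In MDR against BDL 5 of the 9 were called higher (2 after scaling), against 15.1% of all genes, among them Gpihbp1 with a log2 difference of 1.16 (SE 0.25; adjusted p = 0.0137 by limma). Per 1000 FPKM of this sum, Bmp6 was 33.2, 9.82 and 14.4 in BDL and 21.1, 21.4 and 18.8 in MDR, with overlap through BDL replicate 1, which had the lowest endothelial sum. It was 11.3, 11.0 and 14.1 in BDL_H and 14.8, 20.3 and 17.8 in MDR_H, without overlap. The part of endothelial content in the Bmp6 difference was otherwise not tested. The ratio of Hamp to Bmp6 was 795 to 3691 in BDL and 221 to 339 in MDR, without overlap, and 409 to 862 in MDR_H against 804 to 2615 in BDL_H, with overlap. With 3 libraries against 3 the exact two-sided permutation test cannot go below 0.1, the value it gave for MDR against BDL and for MDR_H against MDR; adjusted over 16 ratio tests it was 0.8.

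**Figure D2:**
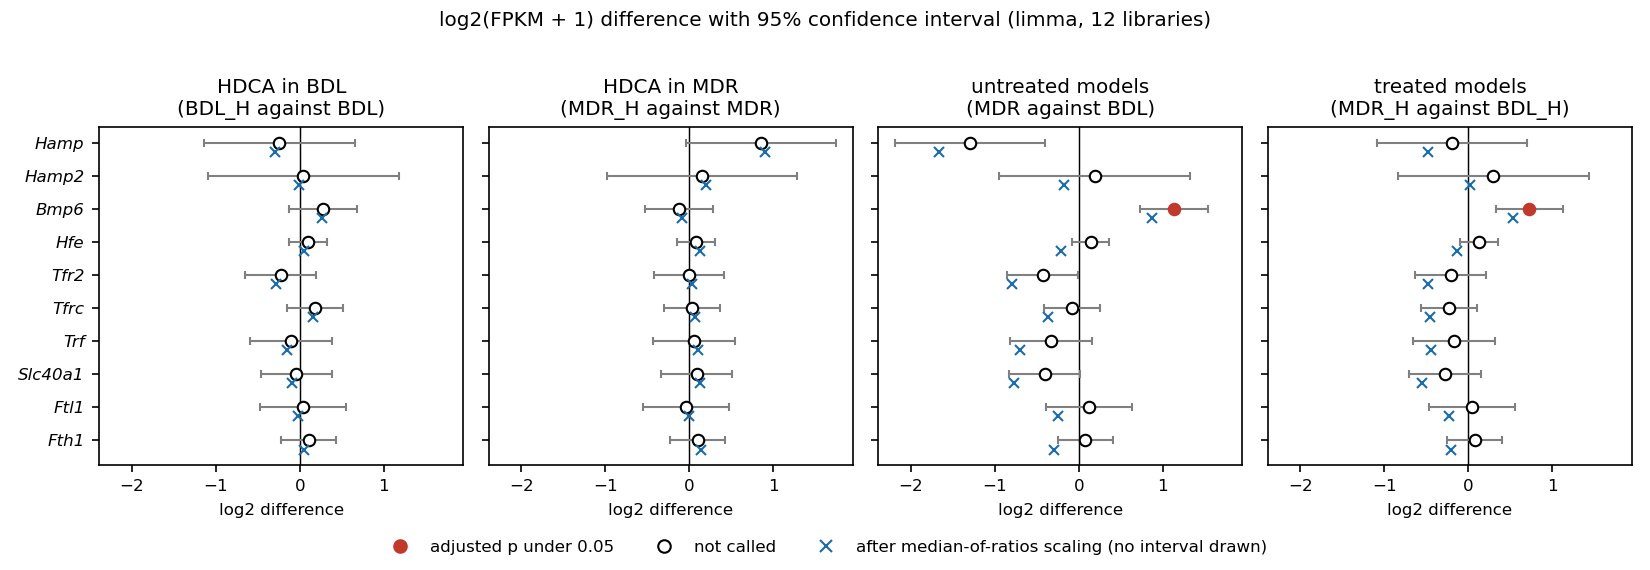
Log2(FPKM + 1) differences of the 10 members in the 4 comparisons, with circles for the estimate (filled where called), bars for the 95% interval of the limma fit over 12 libraries and crosses for the value after scaling. Bmp6 is the 1 member called, in the untreated comparison (1.13) and the treated one (0.73); the intervals of Hamp and Tfr2 also miss 0 in the untreated comparison, at -1.30 and -0.43, without a call.

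Neither partner of iron sensing passed the test in any comparison. Hfe, on chromosome 13 (23702034 to 23710854, minus strand), encodes the protein mutated in the common form of human haemochromatosis. It was at 14.4, 16.8 and 17.4 FPKM in BDL, 17.1, 18.0 and 16.8 in BDL_H, 18.5, 16.9 and 18.2 in MDR and 18.1, 19.1 and 19.7 in MDR_H. Its pooled SD, 0.086 on the log2 scale, was below that of all but 2.43% of tested genes. The MDR_H libraries all lay above the BDL_H libraries, yet the log2 difference was 0.13 (SE 0.10; adjusted p = 0.434 by limma), and it was -0.14 after scaling. Tfr2, on chromosome 5 (137569840 to 137587481, plus strand), encodes the second transferrin receptor, which acts as a sensor in hepatocytes. It was at 152.1, 92.3 and 92.8 FPKM in BDL, 86.6, 105.5 and 88.4 in BDL_H, 90.2, 72.9 and 79.9 in MDR and 69.2, 86.1 and 87.3 in MDR_H. The MDR libraries lay below the BDL libraries, narrowly but without overlap, with the widest gap to BDL replicate 1. The difference, -0.43 (SE 0.19; 95% interval -0.85 to -0.01), had an adjusted p of 0.137 by limma.

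In all, 4 of 10 members did not overlap between MDR and BDL, 1 higher (Bmp6) and 3 lower (Hamp, Tfr2 and Slc40a1), where 42.3% of all genes tested did not overlap, 39.2% higher and 3.12% lower. Between MDR_H and BDL_H it was 2 members, both higher (Bmp6 and Hfe), against 36.9% of genes, 32.4% higher and 4.55% lower. Over all genes the median log2 difference was 0.25 for MDR against BDL and 0.20 for MDR_H against BDL_H, and -0.05 and -0.03 after median-of-ratios scaling; the medians over the 10 members were 0.00 and -0.06, and -0.33 and -0.34 after scaling. Scaling also turned the split of called genes from 1630 higher and 116 lower to 640 and 486 for MDR against BDL, and from 795 and 101 to 333 and 372 for the treated groups. A member whose difference lay near 0 therefore has no firm direction between models.

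Among BMP and SMAD genes around hepcidin, Smad6, Smad5 and Tmprss6 rose and Id1 fell in MDR against BDL. Of 22 tested, 4 were called higher and 1 lower, against 15.1% and 1.07% of all genes, and none of the 4 was called after scaling. Smad6, an inhibitory SMAD, rose from 2.05 ± 0.147 to 3.94 ± 0.466 FPKM (SD, n = 3; adjusted p = 0.00854 by limma), Smad5, a SMAD that carries the BMP signal, from 3.44 ± 0.591 to 5.59 ± 0.839 (0.0233), and Tmprss6, the protease that dampens the hepcidin response, from 127.6 ± 7.57 to 168.6 ± 4.06 (0.0431). Id1, a direct BMP target gene, fell from 19.5 ± 2.92 to 10.5 ± 1.81 FPKM, by 0.83 on the log2 scale (SE 0.22; adjusted p = 0.0278), and was also called after scaling. Between the untreated models Id1, like Hamp, was thus lower in MDR while Bmp6 and Smad6 were higher. Id2 (0.34), Id3 (-0.25), Smad7 (-0.17) and Atoh8 (-0.24) were not called in this comparison. Of the 22 genes, 15 had differences above 0 and 7 below, so Id1 does not stand for the list. Between the treated groups 2 of 22 were called higher and 1 lower, against 7.36% and 0.935% of all genes. Tmprss6 and Atoh8 rose, by 0.51 and 0.63, and Furin, the convertase that matures hepcidin, fell by 0.41. None of these calls was left after scaling. HDCA gave no call among the 22. The smallest p for HDCA in BDL belonged to Id1, at 22.3, 16.5 and 19.7 FPKM in BDL and 9.12, 11.8 and 13.8 in BDL_H (log2 difference -0.71, SE 0.22; adjusted p = 1.00 by limma). For HDCA in MDR it belonged to Atoh8, a transcription factor gene that responds to BMP signalling, at 13.2, 14.9 and 16.0 FPKM in MDR and 17.2, 24.2 and 17.7 in MDR_H (0.39, SE 0.16; adjusted p = 1.00 by limma). Atoh8 moved without overlap in both models and in opposite directions, with 21.8, 16.4 and 14.8 FPKM in BDL and 12.9, 11.7 and 11.9 in BDL_H, as did 0.259% of all genes tested.

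Socs3, Stat3 and Cebpb of the interleukin 6 route were called lower in MDR than in BDL. Of 14 tested, 3 were called lower and 2 higher, against 1.07% and 15.1% of all genes. After scaling the lower count was again 3 and the higher 0. Of the 14 differences 9 were above 0 and 5 below, with a median of 0.32 against 0.25 over all genes. The 3 genes thus do not stand for the list. Cebpb overlapped, at 232.5, 188.1 and 127.3 FPKM in BDL and 63.3, 52.4 and 128.5 in MDR. Its difference between the treated groups was -0.22 (SE 0.32, adjusted p = 0.673 by limma). Socs3, the feedback inhibitor that STAT3 induces, fell from 19.9 ± 3.86 to 4.32 ± 1.21 FPKM (SD, n = 3), by 1.98 on the log2 scale (SE 0.48; adjusted p = 0.0206 by limma). Stat3 itself fell by 0.58 (SE 0.17; adjusted p = 0.0366) and is known to be its own target, while Cebpa, a transcription factor that keeps up basal Hamp, rose by 0.90 (SE 0.14; adjusted p = 0.00329). Between treated groups 2 of 14 were called lower and 1 higher, against 0.935% and 7.36% of all genes: Socs3 and Inhbb, the gene of activin B, fell by 2.62 and 1.06 and Cebpa rose by 0.68; in BDL_H, Socs3 was 16.5, 82.8 and 23.2 FPKM, with the high value in BDL_H replicate 2. Of 16 acute phase genes, 9 were called lower and none higher in MDR against BDL, against 1.07% of all genes called lower, and the median difference was -1.38. After scaling 9 were again called lower, and 14 without both libraries that stood apart. Orm2, an orosomucoid gene, was at 693.9 ± 172.3 FPKM in BDL and 118.5 ± 52.6 in MDR (SD, n = 3; log2 difference -2.62, SE 0.42; adjusted p = 0.00417), and Apcs, the serum amyloid P gene, at 443.4 ± 251.4 and 83.2 ± 1.10 (-2.26, SE 0.42; adjusted p = 0.00731). In the treated groups 8 of 16 were called lower, against 0.935% of all genes, with a median of -1.24, among them Saa1, at 363.3, 4833 and 2809 FPKM in BDL_H and 151.7, 95.1 and 79.8 in MDR_H. HDCA gave no call in either model on the interleukin 6 or the acute phase list; the smallest p for HDCA in BDL belonged to Inhbb (log2 difference 0.80, SE 0.20; adjusted p = 1.00 by limma).

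**Figure D3:**
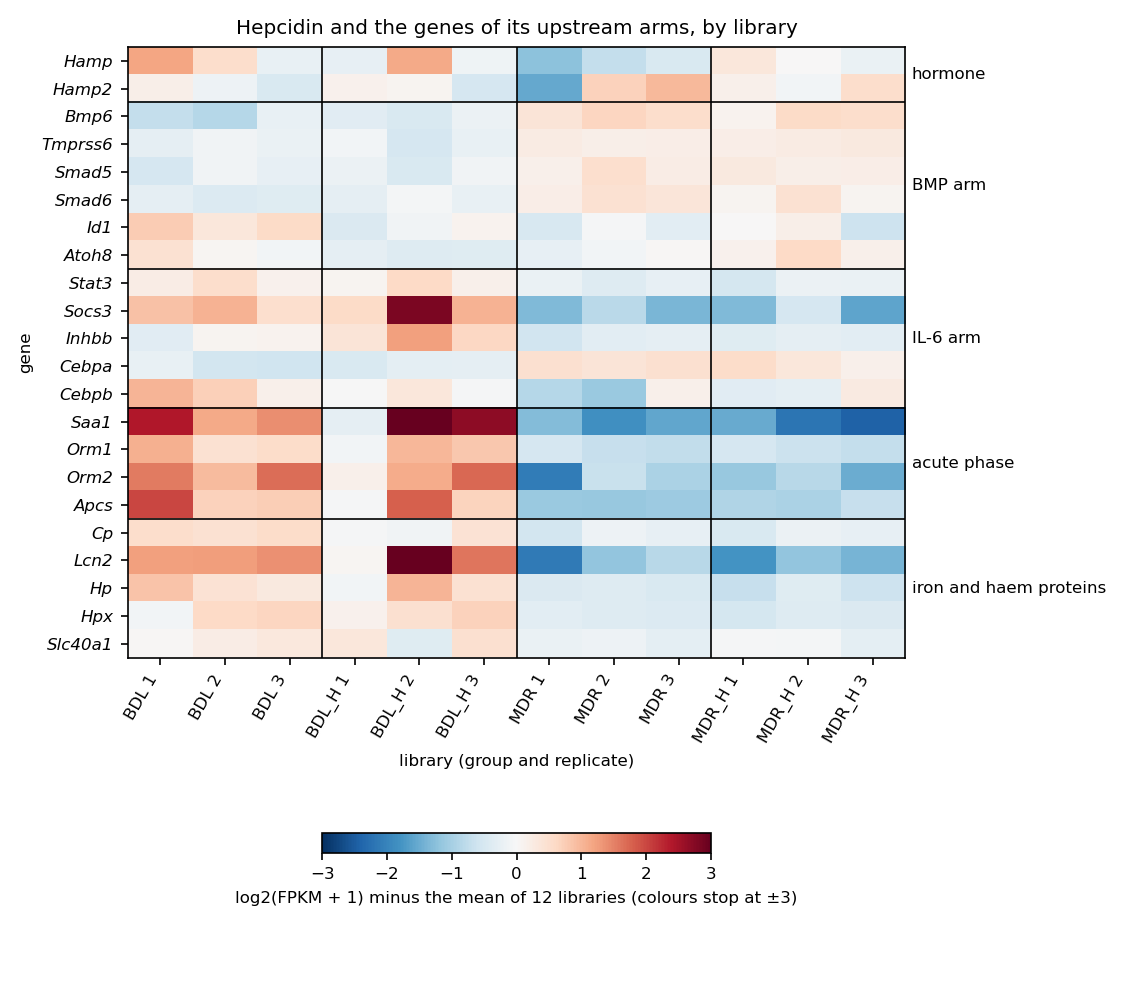
Level of genes of the BMP and interleukin 6 routes beside the members in each of the 12 libraries, as log2(FPKM + 1) centred on each gene's mean over the libraries. Bmp6 and Smad6 are higher in the 6 MDR and MDR_H libraries, and Socs3, Orm2 and Saa1 are lower there; Hamp is lowest in the 3 MDR libraries.

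Tfrc, the transferrin receptor gene, Slc40a1, the ferroportin gene, and the ferritin genes Ftl1 and Fth1 are known to be controlled after transcription, which levels of RNA show only in part. Iron regulatory proteins bind a hairpin, the iron-responsive element, and either block translation from the 5′ UTR or protect the message from the 3′ UTR when iron is scarce. The elements shown mark where these proteins can bind, in the 5′ UTR of Fth1, Ftl1 and Slc40a1 or the 3′ UTR of Tfrc. They are given 5′ to 3′ from GENCODE M21 transcripts (GRCm38), and capitals mark the bulged C and the 6 bases of the loop.
Fth1 5′ UTR, chr19:9982732-9982760, plus strand: uuccugCuucaaCAGUGCuugaacggaac
Ftl1 5′ UTR, chr7:45459779-45459807, minus strand: gucuugCuucaaCAGUGUuugaacggaac
Slc40a1 5′ UTR, chr1:45925465-45925493, minus strand: caacuuCagcuaCAGUGUuagcuaaguuu
Tfrc 3′ UTR, first of 4, chr16:32631219-32631247, plus strand: aauuauCggaagCAGUGCcuuccauaauu
The search took a C, a stem of 5 paired bases with G-U pairs allowed, and the loop CAGUG followed by A, C or U. Such a site was held by 0.725% of 58797 protein-coding transcripts and 1.01% of their genes. Tfrc held 4 sites in 1 of 3 transcripts, Slc40a1 1 site in 1 of 4, Ftl1 1 site in 1 of 2 and Fth1 1 site in 4 of 5 transcripts. The other 6 members had no match, which says only that these letters and this stem were not found.

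No difference in the genes of iron uptake and transport passed the test. Tfrc, on chromosome 16 (32608920 to 32632794, plus strand), encodes transferrin receptor 1, which is known to be scarce in adult hepatocytes, and its RNA carries the 3′ UTR elements. It was at 2.92, 4.01 and 3.99 FPKM in BDL, 3.66, 5.01 and 4.13 in BDL_H, 3.64, 2.97 and 3.50 in MDR and 4.26, 3.24 and 2.97 in MDR_H. The groups overlapped in each of the 4 comparisons, and the log2 difference was 0.18 (SE 0.15; 95% interval -0.15 to 0.52) for HDCA in BDL, 0.03 (SE 0.15; 95% interval -0.30 to 0.37) for HDCA in MDR and -0.08 (SE 0.15) for MDR against BDL. Erythroid cells also carry this receptor: their 10 markers summed to 95.3 to 256.7 FPKM in BDL and 365.1 to 479.3 in MDR, and 4 of the 10 were at 0 in some library, so the part of blood in Tfrc was not tested. Trf (chromosome 9, 103204001 to 103230444, minus strand), the transferrin gene, was the most abundant member and ranked 2 among all genes. It was at 9118, 12163 and 12838 FPKM in BDL, 11127, 8541 and 11996 in BDL_H, 7242, 9486 and 10362 in MDR and 7663, 9876 and 10591 in MDR_H. The groups overlapped, and MDR against BDL gave -0.33 (SE 0.22; 95% interval -0.82 to 0.16; adjusted p = 0.298 by limma).

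Slc40a1, on chromosome 1 (45908068 to 45926523, minus strand), encodes ferroportin, the iron exporter that hepcidin removes from the membrane and that Kupffer cells carry in quantity. Its level was 61.8, 69.8 and 74.9 FPKM in BDL, 76.2, 46.2 and 84.2 in BDL_H, 51.9, 53.9 and 48.8 in MDR and 58.7, 57.9 and 48.4 in MDR_H. The MDR libraries all lay below the BDL libraries; between the treated groups the single library BDL_H replicate 2 was lower than all of MDR_H. For MDR against BDL the log2 difference was -0.41 (SE 0.19; 95% interval -0.83 to 0.02; adjusted p = 0.159 by limma). After scaling it was -0.77 (adjusted p = 0.00595), with limma-voom -0.73 (0.0107), and without both libraries that stood apart -0.48 (0.0154), so the call depends on the processing while the direction did not. For the treated groups it was -0.28 (SE 0.19; adjusted p = 0.365 by limma), and it was called after scaling (-0.55; 0.0334) and without both libraries that stood apart (-0.54; 0.0165). The 8 Kupffer cell markers summed to 213.2 to 500.8 FPKM in BDL and 409.9 to 583.8 in MDR, none at 0 in any library. Of the 8, 1 was called higher and 3 had differences below 0; without both libraries that stood apart, 1 was called higher and 1 lower. The part of Kupffer cells in the Slc40a1 difference was not tested. HDCA left Slc40a1 at -0.04 (SE 0.19; 95% interval -0.47 to 0.38) in BDL and 0.09 (SE 0.19; 95% interval -0.34 to 0.51) in MDR.

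No difference in ferritin passed the test. Ftl1, the light chain gene on chromosome 7 (45457944 to 45459884, minus strand), was at 3309, 5259 and 4792 FPKM in BDL, 4960, 3467 and 5200 in BDL_H, 5092, 4476 and 4719 in MDR and 5933, 4033 and 4103 in MDR_H. Its lowest values in the BDL model were those of BDL replicate 1 and BDL_H replicate 2. Fth1, the heavy chain gene on chromosome 19 (9980598 to 9985098, plus strand), whose product oxidises iron for storage, was at 2637, 2690.5 and 2739.6 FPKM in BDL, 2645, 2776 and 3288 in BDL_H, 2633, 2851 and 3051 in MDR and 3549, 2862 and 2771 in MDR_H. The groups of each of the 4 comparisons overlapped for both chains. The intervals for HDCA were -0.48 to 0.55 in BDL and -0.56 to 0.47 in MDR for Ftl1, and -0.22 to 0.43 and -0.23 to 0.43 for Fth1, on the log2 scale. The ratio of Ftl1 to Fth1 lay between 1.25 and 1.96 in all libraries. Ferritin genes have near-identical copies in the mouse genome, so reads of both chains may be assigned with error.

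By mean level over the 12 libraries the order was Trf (10084 FPKM), Ftl1 (4612), Fth1 (2874), Hamp (2262), Tfr2 (91.9), Hamp2 (62.8), Slc40a1 (61.1), Hfe (17.6), Tfrc (3.69) and Bmp6 (2.94). The ranges of neighbours did not overlap between Trf and Ftl1, between Hamp and Tfr2, between Slc40a1 and Hfe, or between Hfe and Tfrc; the other neighbours overlapped. From the lowest to the highest library, Hamp spanned 5.36-fold, Hamp2 5.91-fold and Bmp6 4.68-fold, against 1.35-fold for Fth1 and 1.37-fold for Hfe.

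Ceruloplasmin and lipocalin 2, 2 other genes of iron traffic, fell in MDR against BDL. Of 13 tested genes of iron import, export and reduction, 3 were called lower and 1 higher in MDR against BDL, against 1.07% and 15.1% of all genes, with the lower count again 3 and the higher 0 after scaling. Cp, the ceruloplasmin gene, whose product oxidises iron as it leaves ferroportin, fell from 614.1 ± 22.8 to 348.5 ± 47.8 FPKM (SD, n = 3; log2 difference -0.82, SE 0.16; adjusted p = 0.00940 by limma). Lcn2, a siderophore binder and acute phase gene, fell from 1003 ± 52.1 to 168.6 ± 69.0 FPKM (-2.66, SE 0.57; adjusted p = 0.0133), Steap4, a metalloreductase gene, fell by 1.34 (adjusted p = 0.0495), and Steap2, a related reductase gene, rose by 0.56 (0.0207). Of 14 haem and haemoglobin scavenging genes, Hp and Hpx, the plasma binders of haemoglobin and haem, fell by 0.95 and 0.77 (adjusted p = 0.0289 and 0.0341 by limma) and Flvcr2 rose by 0.78 (0.00786), against the same shares of 1.07% lower and 15.1% higher; after scaling 6 were called lower. Hmox1, which breaks down haem, was at 21.7, 104.4 and 82.6 FPKM in BDL and 25.1, 26.2 and 29.1 in MDR, an overlap made by BDL replicate 1, and fell between the treated groups by 1.94 (adjusted p = 0.0286). Of 15 genes of iron sensing, ferritin turnover and iron-sulphur assembly, Nfs1 and Iscu, which build iron-sulphur clusters, rose by 0.46 and 0.39, against 15.1% of all genes called higher, and were not called after scaling. In the treated groups, where 7.36% of all genes were called higher and 0.935% lower, the counts were 1 higher and 2 lower of 13, 1 and 3 of 14, and 0 of 15. HDCA called none of these genes in either model.

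Markers of other cells moved with the models too. In MDR against BDL, 8 of 9 stellate cell and fibroblast markers, 6 of 8 cholangiocyte markers, 4 of 9 monocyte-derived macrophage markers, 3 of 6 erythroid markers tested and 1 of 8 Kupffer cell markers were called higher, and 1 of 8 hepatocyte markers and 1 of 5 neutrophil markers tested lower, where 15.1% of all genes were called higher and 1.07% lower. After scaling the counts called higher were 7, 4, 4, 1 and 1 in the same order. Stellate and fibroblast sums were 61.0 to 121.4 FPKM in BDL and 229.2 to 415.7 in MDR, cholangiocyte sums 128.1 to 415.6 and 349.5 to 544.0, macrophage sums 97.8 to 204.3 and 428.1 to 1109. Neutrophil sums were 35.2 to 72.9 and 15.4 to 56.8 FPKM, with 4 of the 9 listed markers at 0 in some library. In MDR against BDL 1 of 4 Y-linked genes was called lower, and the female-biased and male-biased liver lists gave no call. The MDR group was mixed in such genes. Cyp2a4, female-biased, was at 0.684, 0.422 and 0.425 FPKM in BDL and 0.510, 65.2 and 80.7 in MDR. Mup7, male-biased, was at 12.7, 950.6 and 788.2 FPKM in BDL and 1248, 1.44 and 2.58 in MDR. Of the 3 female-biased genes tested, 2 had differences above 0 and 1 below. Of the 7 male-biased genes it was 3 and 4. Between treated groups all 4 Y-linked genes were called lower and 1 of 3 female-biased genes higher. The part of these cells and of sex in the member differences was not tested.

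Over the 12 libraries, the 5 genes of at least 2 FPKM on average whose log2 level was most like that of Hamp, among 8703 ranked, were Hspb8 (Pearson r = 0.874), Fkbp5 (0.862), Apoa4 (0.854), Cyp3a13 (0.854) and Ifitm2 (0.848). Without BDL replicate 1 and BDL_H replicate 2 their r was 0.803, 0.630, 0.805, 0.794 and 0.671. For Hamp2 they were Rdh16f2 (0.873), Rgs16 (0.851), Apof (0.829), Actr6 (0.803) and Zfp189 (0.756), and without MDR replicates 1 and 3 the values were 0.643, 0.764, 0.755, 0.721 and 0.557. Predicted genes without a name, such as those with Gm or Rik symbols, were left out of both rankings. Hamp itself was at r = 0.257 with Hamp2 and -0.704 with Bmp6. All are descriptions of the same 12 libraries, which share their depth and group structure, and carry no p.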

How the data were processed

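Polyadenylated liver RNA was sequenced in 12 libraries, grouped by the sample titles. The authors deposited 1 table of FPKM values. The submitters' processing notes name fastp, CASAVA 1.8, featureCounts 1.5.0-p3, HISAT2 2.0.5 and DESeq2 1.20.0 with the build GRCm38 (mm10). The sources used here give neither the strand setting nor the annotation release, so antisense and near-identical genes may share reads. FPKM is not a count, so log2(FPKM + 1) was tested with limma 3.58.1 (R 4.3.3), trended, two-sided, over means of 4 groups, for genes at 1 FPKM or more in at least 3 libraries, with Benjamini-Hochberg adjustment and a call at 0.05. A fold on this scale understates the change of low genes. FPKM steps gave whole reads for 16968 of 16970 genes (99.99%, within 0.02 of a read); limma-voom on these reads, with median-of-ratios scaling, called 992 genes for MDR against BDL and 534 for the treated groups. Libraries differed by more than sampling noise. Scripts were tested on simulated data. Members and lists were chosen with earlier results of these data known. All members were named. Of the 17 lists, those of pathways gave up to 4 called genes with the smallest p in a comparison. Where none was called, they gave at most the gene with the smallest p. Outside this rule, Id2, Id3, Smad7, Atoh8 and Hmox1 were named for MDR against BDL though not called. So were Id1, Smad6 and Cebpb for the treated groups. Lists of cell type markers and sex gave ranges and counts with at most 3 genes. Same-numbered MDR and MDR_H libraries deviated together (correlations 0.438, 0.312 and 0.548, from the values and not from any label), while those of BDL and BDL_H were mixed (-0.43, -0.382 and 0.431) and those between models were all below 0. Limma-voom in this form, and the counts of list genes without both libraries that stood apart, were chosen after seeing the data. Upstream sequence of the members is not reported here.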

Additional observations from a re-analysis of the deposited data

Results flagged for a closer look

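Atoh8, a BMP-responsive gene, moved in opposite directions under HDCA in the 2 models, without overlap in either. It was at 21.8, 16.4 and 14.8 FPKM in BDL and 12.9, 11.7 and 11.9 in BDL_H, and at 13.2, 14.9 and 16.0 in MDR and 17.2, 24.2 and 17.7 in MDR_H. The difference of the effects was 0.87 on the log2 scale (SE 0.23), and its adjusted p over all genes was 1.00 by limma. Such opposite moves were seen in 28 of 10805 tested genes (0.259%), and in 1 of 180 member and list genes.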

How the results depend on the processing

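Depth was not limiting for the abundant members, and Bmp6 rested on the fewest reads. Of 940 recomputed member values 834 kept their direction and side of the threshold. The number of genes called for MDR against BDL, 1746, was 1126 with scaling, 729 with only the libraries compared and 992 with limma-voom; for the treated groups 896 became 542 with only the libraries compared and 534 with limma-voom. Leaving out single libraries gave 489 to 2346 and 167 to 1550 genes. Members called for MDR against BDL were 2 with scaling and with limma-voom, 3 without both libraries that stood apart and 1 to 3 without single libraries; for the treated groups 0 with a pseudocount of 0.1, with no filter and with limma-voom, and 0 to 1 without single libraries. HDCA and the difference of its effects gave 0 calls under every alternative run; the difference has no version with only the libraries compared, since it uses all groups. The limma-voom fit with TMM scaling was not run, because its tool models counts and the deposited unit is FPKM; the scaling of the reads by median of ratios took its place.

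With the replicate number as a block, 1351 and 589 genes were called between models, 0 for HDCA, and no member call changed; numbers pair MDR with MDR_H only by the values, and same-numbered libraries of BDL and BDL_H had mixed correlations of their deviations (-0.43, -0.382 and 0.431).

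Some member differences changed sign, none of them called in the main values, and the cause was not tested. With scaling the values were, for HDCA in BDL, Hamp2 -0.01 and Ftl1 -0.02, and for HDCA in MDR, Tfr2 0.04, and for the difference of effects, Hfe 0.08, Ftl1 0.02 and Fth1 0.09, and for MDR against BDL, Hamp2 -0.18, Hfe -0.21, Ftl1 -0.25 and Fth1 -0.29, and for the treated groups, Hfe -0.14, Ftl1 -0.23 and Fth1 -0.20. With limma-voom the values were, for HDCA in BDL, Ftl1 -0.00 (below 0 before rounding), and for HDCA in MDR, Tfr2 0.03, and for the difference of effects, Hfe 0.06 and Fth1 0.07, and for MDR against BDL, Hamp2 -0.09, Hfe -0.17, Ftl1 -0.19 and Fth1 -0.24, and for the treated groups, Hfe -0.11, Ftl1 -0.19 and Fth1 -0.17. Without both libraries that stood apart the values were, for HDCA in BDL, Hfe -0.01, Tfrc -0.03 and Slc40a1 0.15, and for the difference of effects, Hfe 0.10, Tfrc 0.07 and Slc40a1 -0.06, and for MDR against BDL, Ftl1 -0.08, and for the treated groups, Hamp 0.24 and Ftl1 -0.14. Leaving out single libraries gave, for HDCA in BDL, Hamp -0.68 to 0.10, Tfr2 -0.35 to 0.01, Ftl1 -0.17 to 0.22, Hamp2 -0.12 to 0.25, Slc40a1 -0.21 to 0.22 and Trf -0.26 to 0.04. Hfe, at 0.01 to 0.14, and Tfrc, at 0.07 to 0.27, kept their sign there. The same gave, for HDCA in MDR, Hamp2 -0.64 to 0.62, Tfr2 -0.08 to 0.10, Trf -0.09 to 0.20, Ftl1 -0.23 to 0.05, Tfrc -0.09 to 0.12, Bmp6 -0.21 to 0.03 and Fth1 -0.01 to 0.17. Without single libraries the ranges were, for the difference of effects, Hamp2 -0.68 to 0.57, Hfe -0.06 to 0.07, Tfr2 -0.01 to 0.34, Ftl1 -0.26 to 0.12, Fth1 -0.12 to 0.09 and Slc40a1 -0.13 to 0.30. Tfrc, at -0.27 to -0.03, kept its sign there. The ranges were again, for MDR against BDL, Ftl1 -0.08 to 0.26 and Hamp2 -0.28 to 0.97. Single omissions gave, for the treated groups, Hamp -0.44 to 0.24, Ftl1 -0.14 to 0.15 and Fth1 -0.04 to 0.17.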
